A study of Mus musculus with 6 samples.

Results

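Immediate-early genes are the first genes that cells transcribe after a stimulus. They are described here through 8 mouse genes, Fos, Fosb, Fosl1, Jun, Egr1, Ier2, Atf3 and Dusp1. Their probes were found by gene symbol among the annotated probes of 6 one-colour bead arrays. Of the 8 genes, 5 had an annotated probe, Fos, Fosb, Jun, Egr1 and Dusp1, each with 1 probe, out of 13165 genes with a named probe. Fosl1, Ier2 and Atf3 had none and were not analysed here. The genes were chosen by their signals and log2 values on these 6 arrays, in both the day and the Noggin comparisons, so the values of its genes are given as a description, with no test.

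The arrays measured total RNA of J1 cells, a mouse embryonic stem cell line. Cultures were given Noggin at 150 ng/ml, a secreted antagonist of bone morphogenetic proteins, or a mock treatment, and were sampled as stem cells (day 0) and as embryoid bodies, the floating aggregates in which stem cells differentiate, at day 2 and day 4. Each of the 6 groups was 1 array. Leukaemia inhibitory factor (LIF), which keeps mouse stem cells undifferentiated, was left out of the medium when embryoid bodies formed, so the time in culture, the loss of LIF and the change from attached cells to aggregates cannot be told apart in a comparison with day 0. Noggin was given for 3 days before the aggregates formed and was taken away on the second day after. The label of every array, mock included, names the same Noggin treatment with LIF, and the design text lists both untreated cells and cells treated for 3 days in the Noggin group. It is therefore not settled whether Noggin had been present for those 3 days when the Noggin cells of day 0 were taken.

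Fos and Jun proteins pair through leucine zippers to form AP-1, a transcription factor that binds DNA near genes of growth, matrix breakdown and stress. Fosb is a close relative of Fos, and Egr1 is a zinc-finger transcription factor. Dusp1 is a phosphatase that removes phosphate from MAP kinases and so works against the kinases that switch immediate-early genes on. In general these genes are induced within minutes by growth factors, serum, cell attachment or stress, through the serum response factor SRF with its ETS-family partners and through CREB, and their RNAs are short-lived. In mouse stem cells the ERK branch of the MAP kinases is known for driving the exit from self-renewal.

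The promoter windows of 4 of the 5 measured genes, without Egr1, are shown as the sequence around their annotated starts. They are RefSeq sequences of the build GRCm38.p6, from 250 bases before to 50 bases after the annotated start, written in the direction of transcription. Fos lies on the plus strand at chr12:85473640-85473939, and Fosb (chr7:19309996-19310295), Jun (chr4:95052173-95052472) and Dusp1 (chr17:26508423-26508722) lie on the minus strand. Capitals mark the cAMP response element TGACGTCA, its core TGACG and the sequence TATAAA, each searched on both strands. The Jun window holds none of them.
Fos: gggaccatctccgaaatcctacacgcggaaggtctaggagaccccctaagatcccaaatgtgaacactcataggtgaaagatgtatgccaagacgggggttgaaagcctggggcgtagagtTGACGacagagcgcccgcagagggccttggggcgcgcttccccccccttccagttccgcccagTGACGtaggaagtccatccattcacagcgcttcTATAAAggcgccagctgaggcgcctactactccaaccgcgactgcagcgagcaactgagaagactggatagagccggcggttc
Fosb: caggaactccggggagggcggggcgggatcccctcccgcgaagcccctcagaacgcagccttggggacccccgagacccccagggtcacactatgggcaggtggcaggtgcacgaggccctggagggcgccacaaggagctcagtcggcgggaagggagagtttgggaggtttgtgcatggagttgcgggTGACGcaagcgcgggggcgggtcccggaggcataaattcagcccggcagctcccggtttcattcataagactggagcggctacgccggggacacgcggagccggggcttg
Jun: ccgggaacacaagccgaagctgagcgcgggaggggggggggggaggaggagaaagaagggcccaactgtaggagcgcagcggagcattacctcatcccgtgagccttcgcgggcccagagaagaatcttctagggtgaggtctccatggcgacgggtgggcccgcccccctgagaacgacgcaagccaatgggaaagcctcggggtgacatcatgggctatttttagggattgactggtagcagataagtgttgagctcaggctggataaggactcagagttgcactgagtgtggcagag
Dusp1: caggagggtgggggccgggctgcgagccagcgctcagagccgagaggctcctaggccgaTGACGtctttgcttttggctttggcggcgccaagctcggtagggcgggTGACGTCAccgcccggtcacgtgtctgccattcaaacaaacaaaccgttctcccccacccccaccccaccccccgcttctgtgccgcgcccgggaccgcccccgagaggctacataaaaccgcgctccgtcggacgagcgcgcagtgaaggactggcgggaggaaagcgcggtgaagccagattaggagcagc

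The full element TGACGTCA was found in the Dusp1 window, 143 bases before the start. It holds a match of its core on each strand, 143 and 140 bases before the start, and both are counted below. Of all 32851 RefSeq promoter windows of this length, 1.79% hold it. The core TGACG, which was added to the search after the sequences were seen, occurred 2 times in the Fos window, 129 and 66 bases before the start, 1 time in Fosb and 3 times in Dusp1, and 20.8% of all windows hold it. TATAAA stood 33 bases before the start of Fos, and in 13.6% of all windows. The GC box GGGCGG, which binds Sp1 and is not capitalised, was found in all 4 windows shown, and in 35.7% of all windows. Neither of the AP-1 sites TGAGTCA and TGACTCA, held by 5.2% of all windows, nor the CArG box that SRF binds, held by 1.63%, was found in the 4 windows, which says only that these letters are not within these 300 bases. Such matches describe the sequence and were not tested as binding sites.

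Signals below are intensities as deposited, in arbitrary units, neither background-subtracted nor scaled. Array medians were between 152 and 176.55, and lowest signals between 91.4 and 101.4, so a signal near the median says little about a transcript. Differences are on the log2 scale after background correction (normexp, offset 50) and quantile normalisation, and are always later minus earlier day or Noggin minus mock. Of the 27496 probes, 15364 passed a filter on dim probes, which asked for a signal over the median of the array on 2 or more arrays. All 5 genes passed it, Jun at no more than 1.22 times the median. The probes that passed stand as the background for the counts below. In such bulk RNA, fewer cells that express a gene and less of its RNA per cell cannot be told apart.

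Fos had signals of 1810.5 on the Noggin array and 1593.3 on the mock array at day 0. The day 2 arrays read 174.9 and 153, and those of day 4 read 327.1 and 368.2. The stem cell arrays were both high, the day 2 arrays both lay below their array medians, and the day 4 arrays lay between. From day 0 to day 2 the difference was -4.08 with Noggin and -4.12 with mock, and because the day 2 signals were not above the median these are bounds, at least 16.6-fold and at least 15.2-fold lower after background correction, with the array median in place of the dim signal. Without background correction the folds were smaller, 10.4-fold in both treatments from the deposited signals and 10.9-fold and 10.8-fold from the authors' log2 values. Averaged over both treatments it was among the deepest differences of the 15364 probes, beside those of Klf4, Emp1, Socs3 and Tbx3, with no order read from a signal below the median. From there to day 4 Fos was 1.87-fold higher with Noggin and 2.41-fold higher with mock by the deposited signals, and at least 2.68-fold and 3.07-fold higher after background correction. At day 4 it was still 6.2-fold and 4.97-fold below day 0.

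**Figure D1:**
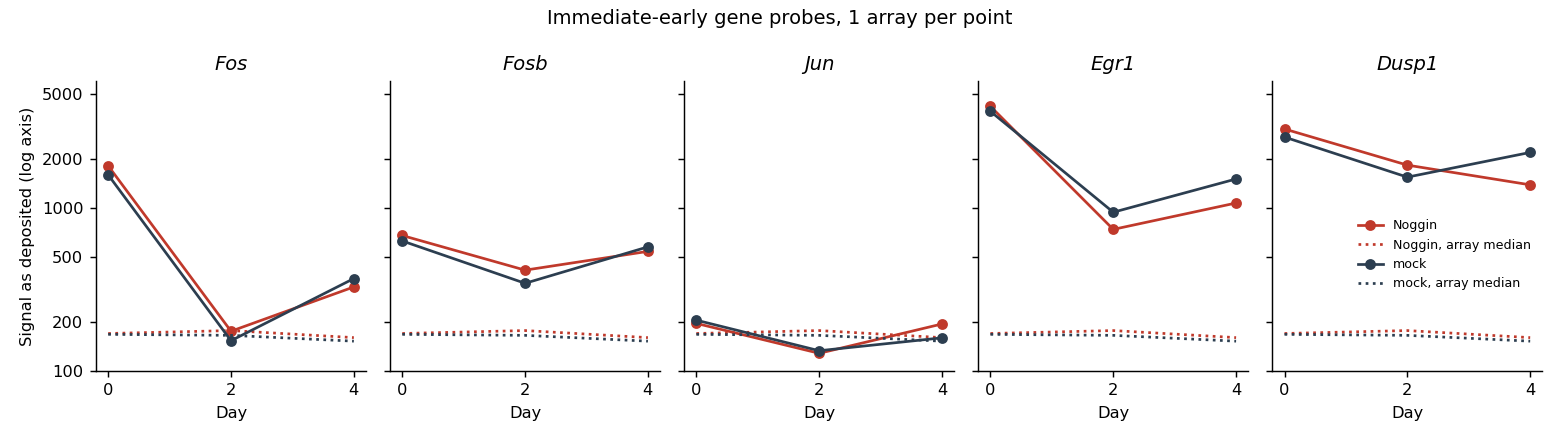
Signal as deposited (log axis) of the probes of Fos, Fosb, Jun, Egr1 and Dusp1 against day, 1 array per point, Noggin in red and mock in dark blue, with dotted lines for the medians of the arrays. All 5 genes were lower at day 2 than at day 0 in both treatments, Fos from 1810.5 and 1593.3 to 174.9 and 153, at the array medians.

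Fosb had signals of 676.5 and 626.4 at day 0, with Noggin named first here and in the next paragraphs. Its day 2 signals were 414.6 and 344.3, and its day 4 signals were 540.5 and 576.1. The course resembled that of Fos, with the day 2 arrays lowest, but it was shallow. The difference from day 0 to day 2 was -0.94 and -0.98, that from day 2 to day 4 was 0.66 and 0.83, and day 4 ended within -0.28 and -0.15 of day 0.

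Jun, the AP-1 partner of Fos, was measured by a probe close to the array median throughout. Its signals were 195.3 and 204.5 in the stem cells, 128 and 132.8 on day 2, and 193.8 and 159.3 on day 4, which is 1.15 and 1.22 times the array median, then 0.725 and 0.805 times, then 1.21 and 1.05 times. The day 2 arrays were again the lowest. Differences of -1.17 and -1.02 from day 0 to day 2 pass 2-fold by their face value, but against the array median they are bounds of at least 1.26-fold and 1.37-fold, and the authors' processed values, which carry no background correction, gave -0.68 and -0.63.

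Egr1 was bright on every array, so its differences are measured and are not bounds. The stem cells gave signals of 4195.1 and 3909.7, the day 2 embryoid bodies 737.5 and 939.8, and the day 4 embryoid bodies 1070.7 and 1503.5. Day 2 arrays were lowest, and within each embryoid body day the Noggin array was the lower. The difference from day 0 to day 2 was -2.82 with Noggin and -2.15 with mock, or 7.06-fold and 4.44-fold lower. From day 2 to day 4 it was 0.85 and 0.69, and day 4 stayed at -1.97 and -1.46 from day 0.

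Dusp1 differed less between days. Its signals went from 3046.6 and 2718.1 in the stem cells to 1828.8 and 1543 at day 2, then to 1384 and 2188 at day 4. Both treatments were lower at day 2, by -0.96 and -0.82, and then parted, with the Noggin array at -0.12 and the mock array at 0.49 from day 2 to day 4. At day 4 Dusp1 with Noggin was 2.11-fold below day 0, and with mock it was 1.26-fold below.

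As counts, the differences of 3 of the 5 genes, Fos, Jun and Egr1, passed 2-fold lower at day 2 than at day 0 in both treatments, as did 3.01% of all 15364 probes. Jun, whose bounds are under 2-fold, is counted by its fitted values only, and under median scaling or with the authors' values the count was 2 of 5, Fos and Egr1. The median of the 5 differences was -1.17 with Noggin and -1.02 with mock, beside 0.02 and 0.01 over all probes. At day 4 against day 0, 2 of 5, Fos and Egr1, were at least 2-fold lower in both treatments (3.38% of probes). Between day 2 and day 4, 1 of 5, Fos, was at least 2-fold higher in both (2.3% of probes). None of the 5 was 2-fold higher at day 2 or day 4 than at day 0 (2.39% and 3.59% of probes), or 2-fold lower at day 4 than at day 2 (1.13%), in both treatments. Since the genes were chosen with these values known, their counts are not set against those shares as a result.

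**Figure D2:**
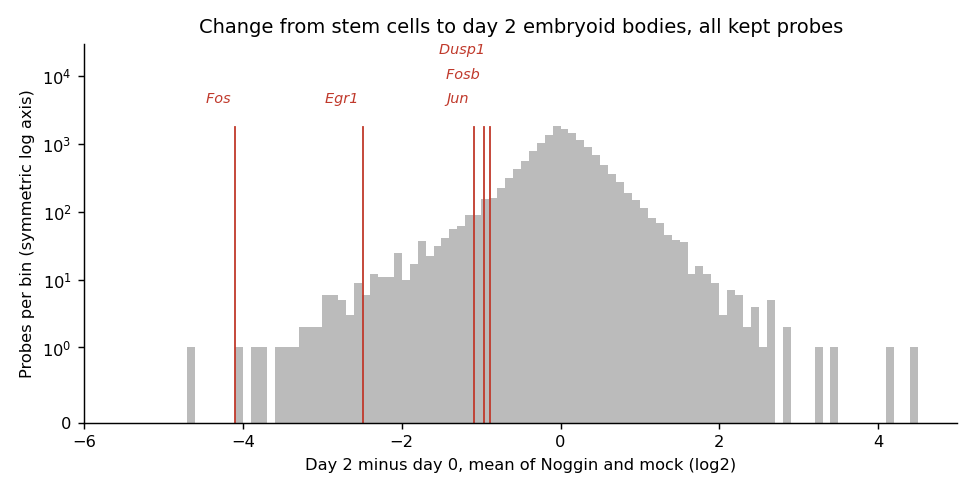
Number of probes (symmetric log axis) by the difference of day 2 minus day 0 on the log2 scale, averaged over Noggin and mock, for the 15364 probes kept, with red lines for the 5 immediate-early genes. All 5 lie left of 0, with Fos near -4.1, at the lower end.

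Noggin and mock arrays were set against each other on each day, the study's treatment comparison. None of the 5 genes differed by 2-fold on any day. Over all probes, the shares at least 2-fold higher and lower were 0.0% and 0.0% for the stem cells, 0.026% and 0.0325% for day 2 and 1.01% and 1.26% for day 4. With 1 array a group these differences have no replicate check. At day 0 they lay between -0.13 for Jun and 0.13 for Dusp1, within the 5th to 95th percentile of all probes, -0.21 to 0.22.

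At day 2 Egr1 was furthest from 0, at -0.61, or 1.53-fold lower on the Noggin array after quantile normalisation. Its deposited signals, 737.5 and 939.8, differed by 1.27-fold, and scaling the arrays to a common median gave -0.46. Of all probes, 0.33% were as far below 0 as -0.61, and the 5th percentile was -0.31. Fos, at 0.16, and Jun, at -0.28, were below the array median on both arrays that day, and Fosb stood at 0.11. Dusp1 differed by -0.01, and by 0.18 when arrays were scaled to a common median in place of quantile normalisation, so its sign at day 2 was not settled.

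At day 4 Dusp1 was furthest from 0, at -0.62, or 1.54-fold lower with Noggin, followed by Egr1 at -0.45. Fos stood at -0.20, Fosb at -0.07, and Jun, whose signals were still near the median, at 0.34. Of all probes, 4.1% were as far below 0 as Dusp1 and 8.35% as far as Egr1, since the day 4 arrays differed widely in general. Averaged over the 3 days, limma with day as a term called 0 of 15364 probes for Noggin against mock (0.0% in either direction, smallest adjusted p = 0.969), with 468 probes (3.05%) at an unadjusted p under 0.05.

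**Figure D3:**
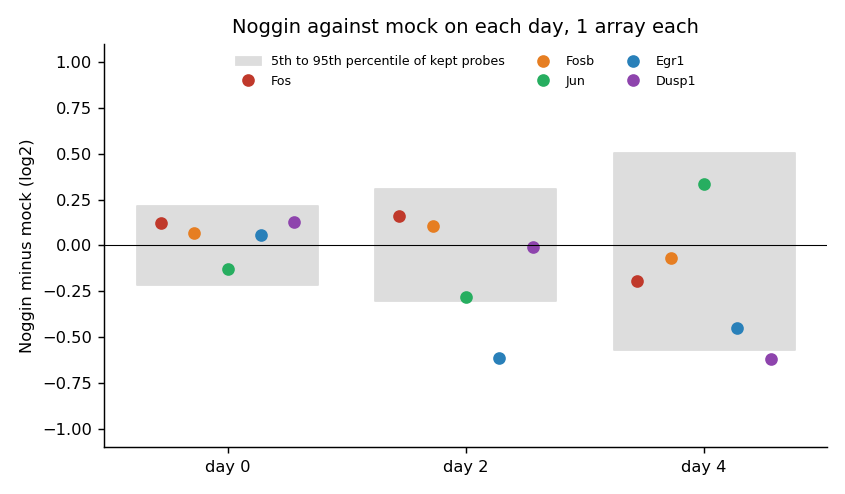
Noggin minus mock on the log2 scale at days 0, 2 and 4, 1 pair of arrays a day, for the 5 immediate-early genes (points), with a grey band from the 5th to the 95th percentile of the 15364 probes kept. Egr1 at day 2 (-0.61) and Dusp1 at day 4 (-0.62) lie below the bands, and the other points lie within them.

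The genes whose level over the 6 arrays was most like that of Fos, by Pearson correlation among 2824 named probes with a range of at least 1 on the log2 scale, were Wsb1 (r = 0.997), Tmem59 (0.9965), Gys1 (0.995), Tigar (0.9944) and Myorg (0.993). Those most like Egr1 were Gaa (0.9982), Pdgfa (0.9948), Grn (0.9946), Ift172 (0.9934) and Igf2r (0.9934). For Jun they were Macroh2a1 (0.9955), Esyt1 (0.995), Ddah2 (0.995), Slc2a3 (0.9919) and Plekhh1 (0.9918). Among the 5 genes themselves r was highest for Fos with Egr1 (0.972) and lowest for Jun with Dusp1 (0.56). These 6 arrays are 3 days in pairs, so such values mostly compare the course over days, and they describe likeness without a test. Jun was close to the array median on all 6 arrays, and Fos was below it on both day 2 arrays. Their correlations thus rest in part on signals that say little about a transcript.

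The other immediate-early genes, a list of 48 without the 8 above, were tested between days with limma over all 15364 probes, with treatment as a term, 2 residual degrees of freedom and Benjamini-Hochberg adjustment. Most of those measured fell as the stem cells became day 2 embryoid bodies. Of 39 genes kept, 25 fell and 4 rose from day 0 to day 2, where 13.1% of all probes fell and 14.3% rose, and the median of the list was -0.78 beside 0.01 for all probes. Ptgs2 and Nr4a2, among the falls, passed the dim filter only through their day 0 arrays, and Gadd45g, among the rises, only through those of day 2. The filter thus fixed the direction in which these genes could be called. From day 2 to day 4, 17 rose and 6 fell (12.8% and 12.9% of all probes). From day 0 to day 4, 18 fell and 10 rose (19.1% and 19.6%). Egr4, among the rises to day 4 in both comparisons, passed the dim filter only through its day 4 arrays. Gadd45g was among the falls from day 2 to day 4, and Ptgs2 and Nr4a2 were among those from day 0 to day 4. The direction of these calls was likewise fixed by the filter. This list and those below were chosen with earlier results of these data known. Their counts describe the lists and are not set against the shares of all probes as a result. Fewer fell from day 0 to day 2 when 1 array of those days was left out, 11 without the Noggin and 13 without the mock array of day 0, and 13 and 12 without those of day 2, against 30 without either array of day 4. The rises from day 2 to day 4 were 3 without the Noggin and 7 without the mock array of day 2, and the falls were 0 and 1, or 10 without the mock array of day 4. The rises from day 0 to day 4 were 1 without the Noggin and 3 without the mock array of day 0, and the falls were 8 and 12.

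Among them the deepest falls from day 0 to day 2 were those of Klf4 and Socs3, both also known as targets of LIF signalling through Stat3. Klf4, a transcription factor of naive stem cells, had signals of 3845.7 and 3598.1 at day 0 and 191.2 and 244.2 at day 2. Its log2 level fell by 4.68 with an SE of 0.188 (limma adjusted p = 0.00045). Socs3, a feedback inhibitor of cytokine signalling, went from 1891.5 and 1955.7 to 194.7 and 210.5 and fell by 3.79 (SE 0.126, limma adjusted p = 0.000251). Ptgs2, the inducible cyclooxygenase, fell by 2.35 (SE 0.126, limma adjusted p = 0.000789), from 453.2 and 434.5 to 138.5 and 144.1. As the day 2 signals lay below the array medians, that is at least 3.68-fold. Ccn2, a secreted matrix protein above the medians on all arrays, fell by 2.16 (SE 0.333, limma adjusted p = 0.0072). Klf2, which with Klf4 is also a stem cell marker, did not pass from day 0 to day 2, at -1.44 (limma adjusted p = 0.107).

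Relatives of Fos, Jun and Egr1 differed in their course over the days. Junb, a Jun relative, fell by 1.38 from day 0 to day 2 (limma adjusted p = 0.00163) and rose by 0.80 from day 2 to day 4 (adjusted p = 0.00867). Fosl2, a Fos relative, fell by 1.32 (limma adjusted p = 0.00229) and rose by 1.07 (adjusted p = 0.00589), from signals of 200.2 and 202.3 at day 0 through 127.7 and 111.2 to 186 and 149.6. Egr2 and Egr3, relatives of Egr1, fell by 0.80 and by 0.84 (limma adjusted p = 0.00593 and 0.0416) and then rose by 1.42 and 1.82 (adjusted p = 0.00221 and 0.00581). Both stood above day 0 at day 4, by 0.62 and 0.98 (limma adjusted p = 0.00943 and 0.0196). Egr4 differed by 0.22 from day 0 to day 2 (limma adjusted p = 0.361), with signals below the array medians on those 4 arrays. The 2 steps share the day 2 arrays, so a low value there enters both of them. Junb, Fosl2, Egr2 and Egr3 were below the array medians on both day 2 arrays, so that against the medians they were at least 2.12-fold, 1.33-fold, 1.01-fold and 1.22-fold lower at day 2 than at day 0. The rises from day 2 to day 4 are likewise bounded, at 1.42-fold for Junb, 1.11-fold for Fosl2, 1.55-fold for Egr2 and 2.4-fold for Egr3.

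Not all immediate-early genes went down. Irf1, a transcription factor of the interferon response, rose by 1.53 from day 0 to day 2 (limma adjusted p = 0.00124), from signals of 269.1 and 272.7 to 732.4 and 640.5. Homer1, a scaffold protein of synapses, rose by 0.49 (limma adjusted p = 0.0338). Gadd45g, a stress gene, and Myc were below the array medians at day 0, and were at least 1.83-fold and 1.24-fold higher at day 2 (limma adjusted p = 0.00249 and 0.0353). From day 2 to day 4 the largest fitted rises were those of Ccn1, a secreted matrix protein, at 2.41, Phlda1 at 1.94 and Egr3, while among the kinase genes Plk2 fell by 1.37 and Plk3 fell by 1.34, and Sgk1 also fell (limma adjusted p between 0.00174 and 0.0104 for these 6 genes). Egr3 was dim at day 2 and is bounded at 2.4-fold, so its place before Hes1 and Id1, fitted at 1.60 and 1.52, is not settled. Ccn1 started below the array medians at day 2 and was at least 5.06-fold higher at day 4.

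**Figure D4:**
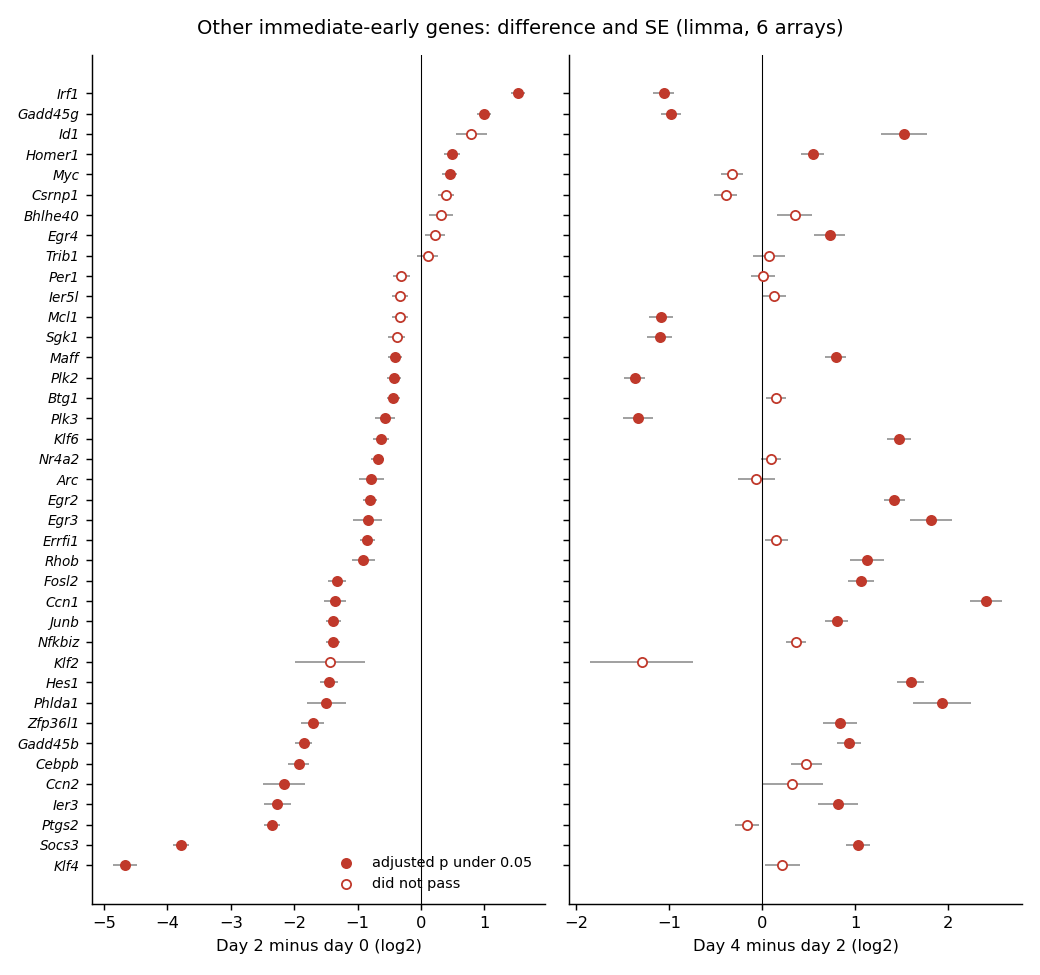
Differences on the log2 scale with their SE (limma, 6 arrays) for the 39 other immediate-early genes kept, from day 0 to day 2 on the left and from day 2 to day 4 on the right, filled where the adjusted p was under 0.05. On the left 25 fell and 4 rose, with Klf4 and Socs3 lowest, and on the right 17 rose and 6 fell.

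Partners that can join AP-1 or related dimers were tested in the same fit. Of 20 such genes 13 were kept, and from day 0 to day 2, 5 fell and 0 rose (13.1% and 14.3% of all probes): Jdp2, a repressor of AP-1, Junb, Fosl2, Bach1 and Maff. Junb, Fosl2 and Maff belong to the list of other immediate-early genes too, so their calls are counted in both lists. Jdp2 fell by 1.61 (limma adjusted p = 0.00263), to signals below the array medians, which is at least 2.2-fold. Jund, the Jun relative that most cells express steadily, stood at -0.23 (limma adjusted p = 0.261). Between day 2 and day 4, 4 rose and 1 fell (12.8% and 12.9% of all probes), the latter the oxidative stress factor Nfe2l2, which fell by 0.58 (limma adjusted p = 0.0305). Without the Noggin array of day 0 the 5 falls were 2, and 3 without the mock array of day 0 or either array of day 2, against 9 without either array of day 4. None of the 4 rises passed without either array of day 2.

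Of 28 upstream kinases and SRF, ETS and CREB factors, 15 were kept, and from day 0 to day 2, 2 fell and 0 rose, close to the 13.1% of all probes that fell. Srf itself had signals of 2183.7 and 2038.5 at day 0 and 1515.5 and 1214.8 at day 2, and fell by 0.73 (SE 0.105, limma adjusted p = 0.00597), and Map3k1, a kinase upstream of the Jun kinases, fell by 0.71 (limma adjusted p = 0.00703). At day 4 Srf was still lower than at day 0, by 0.71 on the log2 scale (limma adjusted p = 0.0044). Map3k1 rose by 0.74 from day 2 to day 4 (limma adjusted p = 0.00832). Neither fall to day 2 passed when 1 array of day 0 or day 2 was left out, and leaving out either array of day 4 gave 2 rises beside the 2 falls.

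MAP kinase phosphatases and feedback inhibitors other than Dusp1 were a list of 17 genes. Of these 14 were kept, and 4 rose and 3 fell from day 0 to day 2 (14.3% and 13.1% of all probes). The 3 falls were 1 under median scaling or with an offset of 16, and 0 without any 1 array of day 0 or day 2. Dusp9, Dusp4 and Dusp6 rose by 1.99, 1.30 and 0.97 (limma adjusted p = 0.00739, 0.00737 and 0.0139), Dusp9 from below the array medians and so at least 3.57-fold. Dusp5 fell by 0.58 (limma adjusted p = 0.0392). At day 4, 5 stood higher and 1, Etv5, lower than at day 0 (19.6% and 19.1% of all probes). Dusp4 led with 2.84 (limma adjusted p = 0.000706), from signals of 353 and 384.9 to 1572.7 and 2958.9. Without either array of day 0 none of the rises to day 2 passed, and 1 passed without either array of day 2. The 5 rises to day 4 were 2 without either array of day 0 and 8 without the mock array of day 4.

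Genes reported as AP-1 targets included Mmp3, the matrix metalloproteinase of the series title. Of 24 genes 18 were kept, and 9 fell and 1 rose from day 0 to day 2 (13.1% and 14.3% of all probes), with a list median of -0.62 beside 0.01 for all probes. Mmp3, Il6 and Hbegf, among the falls, passed the dim filter only through their day 0 arrays. A rise from day 0 could therefore not be called for them. Mmp3 signals went from 1219.8 and 636.4 in the stem cells to 167.7 and 161.7 at day 2, then to 128.4 and 138.5 at day 4. With day 2 below the array medians, this was at least 7.93-fold lower, or -3.07 as fitted with an SE of 0.297 (limma adjusted p = 0.00201). All 4 arrays of days 2 and 4 were below their medians for Mmp3, so no difference between those days is read. The chemokine gene Cxcl1 fell by 2.94 (limma adjusted p = 0.00045), the vascular growth factor gene Vegfa fell by 2.20 (adjusted p = 0.00201) and the cytokine gene Il6 fell by 2.06 (adjusted p = 0.00104). Il6 was below the medians at day 2, which makes it at least 2.91-fold lower. Vegfa rose again by 2.44 from day 2 to day 4 (limma adjusted p = 0.00253). The falls to day 2 were 6 without the Noggin array of day 0 and 12 without either array of day 4. The RefSeq promoter window of Mmp3 holds 1 AP-1 site, TGAGTCA, 46 bases before the annotated start.

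Amino acid and unfolded protein stress genes, which belong to the pathway that induces Atf3, also fell more often than they rose at day 2. Of 19 genes 15 were kept, and 6 fell and 1, Xbp1, rose (13.1% and 14.3% of all probes). Nupr1 fell by 3.29, Asns fell by 2.18 and Cebpb fell by 1.93 (limma adjusted p = 0.0242, 0.00437 and 0.00158). Cebpb is also listed among the other immediate-early genes, and Atf4 among the AP-1 partners. From day 2 to day 4, 4 rose and 1 fell (12.8% and 12.9% of all probes). Ddit3, among these rises, passed the dim filter only through its day 4 arrays. A fall to day 4 could therefore not be called for it. Chac1 rose by 2.67 (limma adjusted p = 0.0104), and Vldlr, below the array medians at day 2, was at least 5.71-fold higher at day 4 (limma adjusted p = 0.00176). Falls to day 2 numbered 1 without the Noggin array of day 0 and 2 without the mock array of day 0 or either array of day 2. The 4 rises from day 2 to day 4 were 1 without either array of day 2 and 11 without the Noggin array of day 4.

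On single days these lists were compared between Noggin and mock with 1 array a group and no test. At day 0 the 2 treatments were close for the other immediate-early genes. Of 34 other immediate-early genes above the median on both arrays 19 were higher with Noggin, between -0.18 for Homer1 and 0.21 for Sgk1, beside 50.3% of all such probes. Of 18 reported AP-1 targets 16 were higher at day 0, with a median of 0.11, led by Mmp3 at 0.95, Mmp13 at 0.39 and Mmp9 at 0.31. Each of these genes lay above 0.22, the 95th percentile of all probes kept. The same list had 3 of 13 higher at day 2 (median -0.23, Mmp13 at -0.69), beside 49.4% of all such probes. Under median scaling 4 of 13 were higher that day, beside 71.4% of such probes. At day 4, 7 of 13 were higher (median 0.12), beside 51.2%.

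At day 2, 6 of 27 other immediate-early genes were higher with Noggin, beside 49.4% of all probes above the median on both arrays, with Klf2 at -0.80 and Klf4 at -0.69 lowest. That count depended on the scaling, which was checked after the values were seen: with arrays scaled to a common median 17 of 27 were higher, beside 71.4% of all such probes. At day 4, 13 of 32 were higher, beside 51.2% of probes, from Klf2 at -2.59 and Ccn2 at -1.18 to Egr3 at 0.85 and Phlda1 at 1.12. Phosphatases and ERK feedback genes had 7 of 12 higher at day 4, with a median of 0.02. They ran from Etv5 at -0.96, Dusp4 at -0.88 and Dusp6 at -0.64 to Spred1 at 0.46, Dusp5 at 0.51 and Dusp9 at 1.26. Of 14 stress genes 2 were higher at day 4, also under median scaling, with a median of -0.56. Chac1 at -1.91 and Asns at -1.04 were lowest, and Vldlr at 0.60 and Ddit4 at 0.83 were the higher ones.

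Marker genes were read on the same arrays. Of 15 stem cell markers with a probe, 15 were above the array median on both day 0 arrays, with summed signals of 65203.2 and 62311.6, and the sums were 25240 and 25981.7 at day 2 and 11678.9 and 26078.7 at day 4. Fibroblast markers, which feeder cells would carry, were above the median for 8 and 7 of 9 at day 0, with sums of 7342.5 and 6256.1, led by Dcn at 2177.8 and 1467.1. They summed to 2884.1 and 2421 at day 2 and 3268.5 and 2750.1 at day 4. The defining collagen gene Col1a1 stood above the median only on the Noggin array of day 0, at 179.7, and Postn was below it on all 6 arrays. Both sums were thus highest on the arrays where Fos, Egr1 and Dusp1 were highest, and their part in the differences was not tested. Of 2 macrophage markers with a probe, Laptm5 went from 7620.5 and 7594.7 through 929.9 and 1355.6 to 181 and 538.5, and Adgre1 stayed between 116.6 and 182.9. Primitive streak markers summed to between 1105.7 and 1192.7 up to day 2, and to 13173 with Noggin and 5491.3 with mock at day 4. Endoderm and blood or endothelial sums were also highest at day 4, at 3246.7 and 2440.7 and at 4833 and 2424.9. Of the neuroectoderm markers Otx2, which the epiblast expresses too, carried most of the sums of 1420.7 to 4265.3.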

How the data were processed

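Total RNA of 6 samples was made into biotinylated cRNA and read on Mouse-6 bead arrays with a Cy3 stain, per the labels' protocols. The deposited intensity tables hold 27496 probes each, neither background-subtracted nor scaled, as the values show. The authors' series matrix of log2 values equals the quantile-normalised log2 intensity, with no background correction and no centring, and has the same median in every column. Scanner software is not given in the sources used here. Detection values were not used. Array probes were linked to matrix rows whose 6 values agreed within 0.006 (27491 probes); all 2220 links with an accession on both sides carried the same one. Of the probes 19419 had 1 symbol, 6 several and 8071 none.

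Intensities were corrected with normexp (offset 50, in place of neqc, which needs detection values), quantile-normalised and fitted with limma 3.58.1 in R 4.3.3 (4 coefficients, 4.05 prior degrees of freedom, threshold 0.05). A gene with several probes was read from the one with the highest mean signal. Nothing in the labels says whether the arrays stem from separate cultures, so p-values measure only the spread between these arrays, whose number limits the precision. On simulated data for day 2 against day 0 with 15364 probes, the fit recovered 44.8%, 80.6% and 95.5% of changes of 1, 2 and 3 on the log2 scale. These changes were given to 67, 67 and 66 probes, at day 2 and day 4 alike, with normal noise and spreads shuffled among probes. In the data 2200 rises and 2007 falls were called, so the percentages do not measure the power of the fit there.

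The genes, the 6 pathway lists and the 7 marker lists were chosen with earlier results of these data known. The text names all probes of the listed genes, up to 3 list genes on each side of each contrast among those that passed, the extremes on single days, Mmp3 and the 5 genes most like Fos, Jun and Egr1 each. Others, such as Junb, Egr2, Egr3, Egr4, Ccn2, Il6, Jund, Klf2, Myc, Laptm5, Emp1 and Tbx3, were chosen after their values were seen. Alternatives were median scaling, the authors' matrix, an offset of 16, other filters, other model terms, the mean of a gene's probes and leaving out each array.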

Additional observations from a re-analysis of the deposited data

Results flagged for a closer look

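For each of the 5 immediate-early genes the difference of Noggin minus mock had 1 sign on 1 day and the other sign on another, with 1 pair of arrays a day, so that the change of the difference between days was not tested. The gap was widest for Dusp1, at 0.747 on the log2 scale between day 0 (0.13) and day 4 (-0.62). For Egr1 it was 0.669, between day 0 (0.06) and day 2 (-0.61). For Jun it was 0.618, between day 4 (0.34) and day 2 (-0.28), with signals near or below the array median. Fos gave 0.359, between day 2 (0.16), where it was below the median on both arrays, and day 4 (-0.20). Fosb gave 0.178, between day 2 (0.11) and day 4 (-0.07). Groups of 1 array could not be searched for outlying samples.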

How the results depend on the processing

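Of 48 recomputed counts of the 5 genes past 2-fold, under median scaling, the authors' values, an offset of 16 and the mean of a gene's probes (1 each here), 47 stayed within 1.5 times. With an offset of 16, 2 genes in place of 1 were 2-fold higher at day 4 than at day 2 in both treatments. Of 135 recomputed single differences 7, all of Jun or Fosb, crossed 2-fold, and 1, of Dusp1 at day 2, changed sign. With a filter at the 75th percentile, which tests fewer probes, limma called 1416 rises and 1302 falls from day 0 to day 2, 1851 and 1874 from day 0 to day 4, and 1224 rises from day 2 to day 4. Leaving out 1 array, which leaves 1 residual degree of freedom and assumes that a lone array varies like the others, gave 160 to 4188 rises and 203 to 3793 falls from day 0 to day 2, 469 to 4066 and 410 to 4283 from day 0 to day 4, and 121 to 3311 and 27 to 3843 from day 2 to day 4. For list genes these were 1 to 18 and 17 to 60, 5 to 29 and 13 to 45, and 5 to 46 and 0 to 19. Noggin against mock gave 0 to 1 rises and 0 to 3 falls. Of 456 values of named list genes recomputed so, 124 were no longer past the threshold. Mmp3, dim on all arrays of days 2 and 4, ranged from -0.69, past the threshold without the mock array of day 4, to 0.097, not past it without the Noggin array of day 4, for day 2 to day 4, and from -0.21, without either array of day 0, to 0.44 for Noggin against mock, never past it. Apart from the fewer probes and arrays, the cause was not tested. The fit of Noggin against mock with day as a term already sets the arrays of each day against each other, and no paired analysis was possible beyond that because the labels give no replicate numbers. Signals near the array median limit Jun on all arrays and Fos at day 2.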
